A study of Arabidopsis thaliana with 12 samples.

Results

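Glucosinolates are sulphur-containing defence compounds of Arabidopsis and its relatives, stored in the tissue and split by myrosinases when cells are damaged. Their synthesis starts from amino acids. CYP79 enzymes turn an amino acid into an aldoxime, CYP83 enzymes oxidise the aldoxime, glutathione is added, and the C-S lyase SUR1, the glucosyltransferase UGT74B1 and a sulphotransferase complete the core. Indole glucosinolates come from tryptophan through CYP79B2 or CYP79B3 and CYP83B1, and their genes are activated by MYB34. Aliphatic glucosinolates come from chain-elongated methionine through CYP79F1 and CYP83A1, and their genes are activated by MYB28. SUR1 and UGT74B1 serve both branches, and SOT16 prefers indole substrates.

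The 10 genes described here are those named above. They were matched by gene ID among the 33610 genes counted in unopened flower buds of Arabidopsis thaliana, and they were picked by name with earlier results of these libraries known. Their levels and changes are therefore given as descriptions with no p-value, and where the text counts how many of them passed a limit in the fit over all genes, that count is a description too. RNA was sequenced in 12 libraries that form 4 groups of 3 biological replicates. Wild-type plants (WT, Col-0) and plants of the single T-DNA insertion line bzip17 (SALK_104326, in Col-0) stayed at 22 °C or spent 6 h at 38 °C (heat stress). bZIP17 is a membrane-anchored transcription factor of the endoplasmic reticulum stress response. Each library pooled buds of stages 1 to 12 from 8 plants, so spread is between pools, and bzip17 stands for 1 line. In pooled buds, fewer cells of a type and less RNA per cell cannot be told apart.

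Libraries held 38.6 to 71.8 M counts (M, 1e6). The 15 rRNA loci took 1.43 to 64.8% of them, over 10% in 4 libraries (WT at 22 °C replicates 2 and 3, WT at 38 °C replicate 1 and bzip17 at 22 °C replicate 1), which left 13.6 to 69.9 M counts outside rRNA. Levels below are counts per M (CPM) after TMM scaling. The bZIP17 gene was lower in all 6 bzip17 libraries than in all 6 WT libraries, with a log2 difference of -3.10 at 22 °C and -2.38 at 38 °C, and the heat-induced chaperone gene HSP101 rose by 3.46 and 3.85 log2 in WT and bzip17 at 38 °C. Replicate 2 of both heated groups stood apart in HSP101, at 287.1 and 305.8 CPM against 71.9 to 127.6 CPM in the other 4 heated libraries. All 7 floral identity markers (summed level 245 to 799 CPM over the 12 libraries) and all 3 green tissue markers were detected. Both root hair markers were at 0 in every library, and the 3 seed storage markers summed to at most 0.244 CPM.

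The CYP79B2 and CYP79B3 genes encode enzymes of the same step, and the bases before their start sites are printed because they share a block of letters. Below are the 250 bases before each start in the RefSeq annotation of TAIR10.1, with the shared stretches of at least 12 bases in capitals.
CYP79B2, chr4:18524792-18525041, plus strand: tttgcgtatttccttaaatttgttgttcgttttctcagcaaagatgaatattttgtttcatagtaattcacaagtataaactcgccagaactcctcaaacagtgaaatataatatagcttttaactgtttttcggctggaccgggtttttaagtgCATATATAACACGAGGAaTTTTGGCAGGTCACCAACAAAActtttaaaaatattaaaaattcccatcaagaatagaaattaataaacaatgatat
CYP79B3, chr2:9488163-9488412, plus strand: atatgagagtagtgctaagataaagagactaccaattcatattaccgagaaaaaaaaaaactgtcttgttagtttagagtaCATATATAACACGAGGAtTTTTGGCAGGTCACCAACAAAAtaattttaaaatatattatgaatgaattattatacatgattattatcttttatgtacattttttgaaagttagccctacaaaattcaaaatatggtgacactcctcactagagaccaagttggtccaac
The first stretch has 17 bases and lies 95 bases before the start of CYP79B2 and 169 before that of CYP79B3. The second has 22 bases and lies 77 and 151 bases before those starts. A single base, which differs between the genes, separates the stretches. Each stretch occurred in 2 of the 27443 promoters searched on both strands. The stretches were read from these 2 promoters and are long, so nothing is read from their absence elsewhere. The ACCAAC letters inside the second stretch, a core to which plant MYB proteins bind, were looked for after these sequences had been read. They occurred in the promoters of 4 of the 10 genes (CYP79B2, CYP79B3, UGT74B1 and SOT16) and in 11.5% of all promoters.

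The G-box CACGTG, a core bound by basic helix-loop-helix and bZIP factors, was the only one of 3 motifs chosen for this search that occurred among the 10 promoters. It occurred in those of CYP83A1 and SUR1, 43 and 50 bases before the start, against 6.49% of all promoters. The 60 bases around each match are printed with the motif in capitals.
CYP83A1, chr4:7992440-7992499, minus strand: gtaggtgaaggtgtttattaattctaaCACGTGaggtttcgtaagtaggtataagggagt
SUR1, chr2:8880458-8880517, minus strand: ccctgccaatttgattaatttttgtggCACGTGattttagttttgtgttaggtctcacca
The heat shock element core GAANNTTC occurred in 0 of the 10 promoters and in 9.55% of all, and ERSE-II, an element of endoplasmic reticulum stress genes, in 0 of the 10 and in 0.0619% of all. These are matches of letters in windows of 250 bases and say nothing of binding. With ERSE-II so rare among all promoters, 0 of the 10 does not set these genes apart.

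In WT buds at 22 °C the genes of the shared and later steps stood highest per gene length. On the scale of FPKM adjusted by the same TMM factors, SUR1 had a mean of 20.2 (SD 2.82, n = 3), SOT16 16.6 (SD 1.32), UGT74B1 16.5 (SD 1.36), CYP83B1 15.1 (SD 3.66), CYP83A1 10.3 (SD 2.94) and MYB28 9.76 (SD 6.70). MYB34 followed at 3.93 (SD 1.37), CYP79B2 at 1.74 (SD 0.196), CYP79B3 at 0.501 (SD 0.237) and CYP79F1 at 0.145 (SD 0.138). Neighbours from SOT16 to MYB34 in that order overlapped in their libraries, whereas SUR1 stood above SOT16, and CYP79B2, CYP79B3 and CYP79F1 each stood below the gene before them without overlap. In bzip17 at 38 °C the order on this scale was UGT74B1 (21.3, SD 5.69), SUR1 (17.02, SD 2.67), SOT16 (13.1, SD 3.51), CYP83A1 (7.99, SD 0.885), MYB28 (5.44, SD 0.642), MYB34 (2.75, SD 0.317) and CYP83B1 (1.498, SD 0.479), then CYP79B3 (0.221, SD 0.0745), CYP79B2 (0.151, SD 0.0467) and CYP79F1 (0.0888, SD 0.103). CYP83B1 thus went from the fourth to the seventh place, with no library of that group reaching those of MYB34, and CYP79B2 overlapped CYP79B3.

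**Figure D1:**
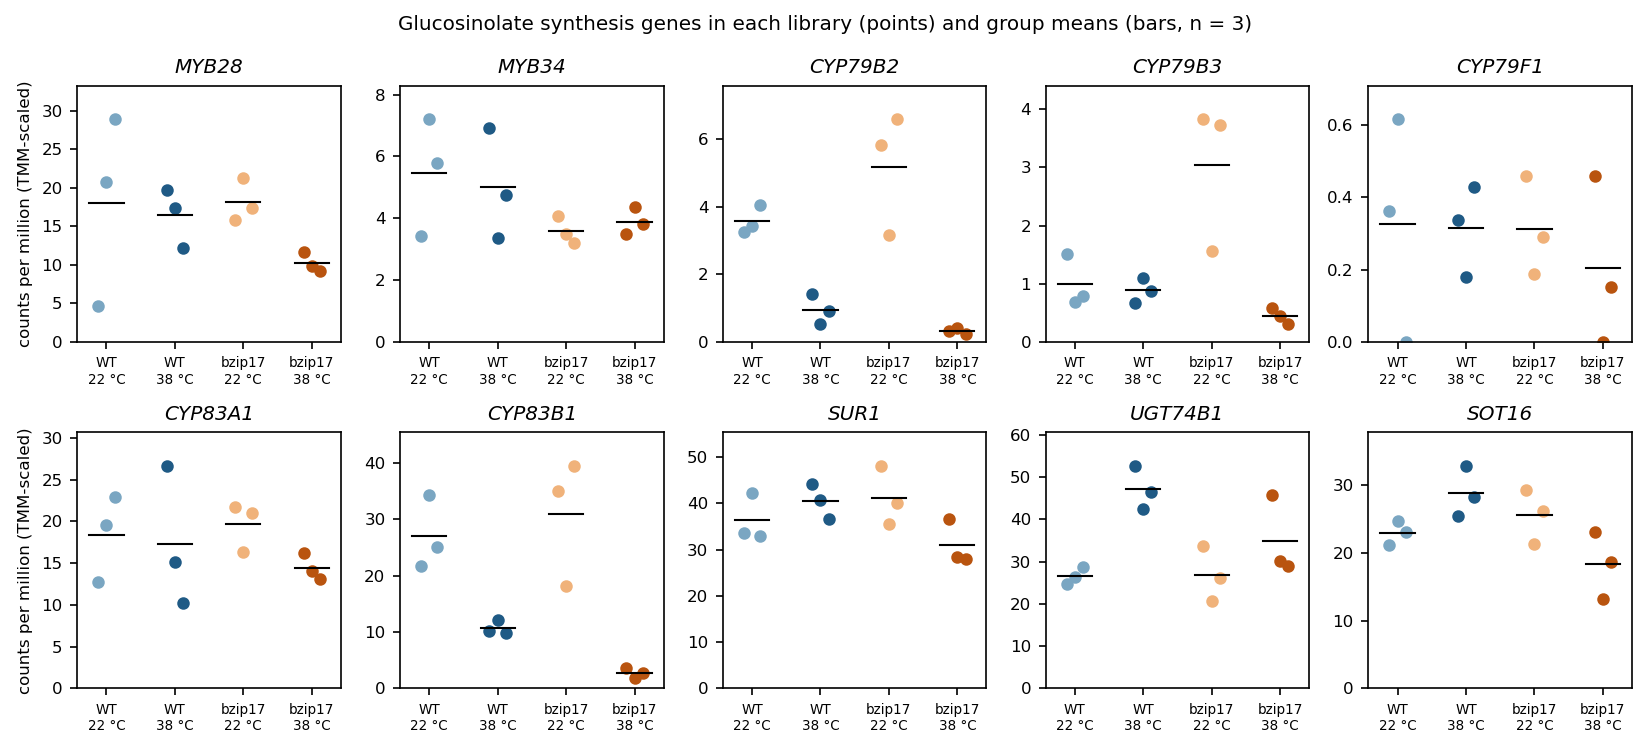
Levels of the 10 glucosinolate synthesis genes in TMM-scaled CPM (y axis, from 0, its range set per gene) in WT and bzip17 buds at 22 °C and 38 °C; points are libraries and bars are means of 3. CYP83B1 lay between 18.2 and 39.5 CPM at 22 °C in both genotypes, between 9.84 and 12.2 CPM in heated WT and between 1.90 and 3.64 CPM in heated bzip17.

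The regulators were looked at first. MYB28 (AT5G61420, chromosome 5, 24689151 to 24691095 on TAIR10) stood at 4.60, 20.8 and 28.9 CPM in WT at 22 °C (replicates 1, 2 and 3), 19.6, 17.4 and 12.2 CPM in WT at 38 °C, 15.8, 21.3 and 17.4 CPM in bzip17 at 22 °C, and 11.6, 9.89 and 9.22 CPM in bzip17 at 38 °C. Replicate 1 of WT at 22 °C was the lowest of the 12 libraries, below even the heated mutant, and the heated bzip17 libraries lay below those of bzip17 at 22 °C and of heated WT without overlap. The log2 change with heat was -0.13 (SE 0.46) in WT and -0.83 (SE 0.47) in bzip17, and the WT value was 0.55 after scaling to library totals and 1.69 without the 4 rRNA-rich libraries, which leaves replicate 1 as the only WT library at 22 °C.

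MYB34 (AT5G60890, chromosome 5, 24494691 to 24496351) stood at 3.43, 7.20 and 5.79 CPM in WT at 22 °C, 6.91, 3.37 and 4.75 CPM in WT at 38 °C, 4.07, 3.48 and 3.18 CPM in bzip17 at 22 °C, and 3.49, 4.36 and 3.81 CPM in bzip17 at 38 °C. Every pair of groups overlapped. Its log2 change with heat was -0.13 (SE 0.33) in WT and 0.12 (SE 0.33) in bzip17.

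The aldoxime-forming genes of the indole branch come next. CYP79B2 (AT4G39950, chromosome 4, 18525246 to 18527579) stood at 3.24, 3.43 and 4.03 CPM in WT at 22 °C and 1.41, 0.535 and 0.917 CPM in WT at 38 °C. In bzip17 it stood at 5.82, 3.15 and 6.58 CPM before heat and at only 0.327, 0.418 and 0.228 CPM after it. Heated libraries lay below those at 22 °C in both genotypes, and heated bzip17 lay below heated WT, without overlap. The log2 change with heat was -1.90 (SE 0.43) in WT and -3.98 (SE 0.47) in bzip17.

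CYP79B3 (AT2G22330, chromosome 2, 9488554 to 9491187), which makes the same indole aldoxime, stayed under the expression limit for testing. It stood at 1.51, 0.687 and 0.780 CPM in WT at 22 °C, 0.672, 1.11 and 0.876 CPM in WT at 38 °C, 3.83, 1.55 and 3.73 CPM in bzip17 at 22 °C, and 0.581, 0.449 and 0.304 CPM in bzip17 at 38 °C. WT libraries overlapped between temperatures, whereas bzip17 at 22 °C lay above all 9 other libraries and heated bzip17 lay below them. In a fit with no expression limit the log2 change with heat was -0.18 (SE 0.54) in WT and -2.75 (SE 0.56) in bzip17, and bzip17 exceeded WT at 22 °C by 1.59 (SE 0.54). CYP79B2 and CYP79B3 are close relatives, so reads shared between them could have been counted for either.

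CYP79F1 (AT1G16410, chromosome 1, 5608807 to 5611426), which takes the methionine chains, was near the detection limit. Its level was at most 0.615 CPM in any library, and 2 libraries held 0 counts (WT at 22 °C replicate 3 and bzip17 at 38 °C replicate 2). All 4 groups overlapped, no fold is given, and its neighbour and near-copy CYP79F2 makes the assignment of its reads uncertain.

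The next step is taken by a different gene in each branch. CYP83B1 (AT4G31500, chromosome 4, 15273471 to 15275310), the indole aldoxime oxidase, stood at 21.7, 34.4 and 25.1 CPM in WT at 22 °C and 10.14, 12.2 and 9.84 CPM in WT at 38 °C. In bzip17 it stood at 35.0, 18.2 and 39.5 CPM before heat and 3.64, 1.90 and 2.64 CPM after it. The genotypes overlapped at 22 °C, every heated library lay below the unheated ones, and heated bzip17 lay below heated WT throughout. The log2 change with heat was -1.34 (SE 0.31) in WT, 2.53-fold lower, and -3.50 (SE 0.33) in bzip17, 11.3-fold lower. The 2 changes differed by -2.16 log2 (SE 0.43).

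CYP83A1 (AT4G13770, chromosome 4, 7990485 to 7992311), its counterpart in the aliphatic branch, stood at 12.8, 19.5 and 22.9 CPM in WT at 22 °C, 26.7, 15.1 and 10.2 CPM in WT at 38 °C, 21.7, 16.4 and 21.0 CPM in bzip17 at 22 °C, and 16.2, 14.0 and 13.1 CPM in bzip17 at 38 °C. Heated bzip17 lay just below bzip17 at 22 °C, and the other groups overlapped. Its log2 change with heat was -0.08 (SE 0.31) in WT, or 0.39 after scaling to library totals, and -0.45 (SE 0.31) in bzip17.

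The genes that complete the core had smaller changes with heat than CYP83B1, and their sign varied. SUR1 (AT2G20610, chromosome 2, 8877960 to 8880388) stood at 33.7, 42.2 and 33.04 CPM in WT at 22 °C, 44.2, 40.6 and 36.7 CPM in WT at 38 °C, 48.1, 35.6 and 40.1 CPM in bzip17 at 22 °C, and 36.7, 28.3 and 28.0 CPM in bzip17 at 38 °C. The temperatures overlapped in each genotype, and the heated groups met, with the lowest WT and the highest bzip17 library both at 36.7 CPM when rounded. The log2 change with heat was 0.16 (SE 0.16) in WT and -0.41 (SE 0.16) in bzip17.

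UGT74B1 (AT1G24100, chromosome 1, 8525435 to 8527087) stood at 24.6, 26.4 and 28.7 CPM in WT at 22 °C, 52.7, 42.4 and 46.4 CPM in WT at 38 °C, 33.7, 20.8 and 26.2 CPM in bzip17 at 22 °C, and 45.7, 30.0 and 29.0 CPM in bzip17 at 38 °C. It was the member with the largest positive log2 change with heat in WT, 0.83 (SE 0.21) with no overlap, and in bzip17 the change was 0.38 (SE 0.21) with overlapping libraries. In WT it passed the 2-fold limit only after scaling to library totals, at 1.25.

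SOT16 (AT1G74100, chromosome 1, 27864345 to 27865694) stood at 21.1, 24.7 and 23.0 CPM in WT at 22 °C, 25.4, 32.8 and 28.3 CPM in WT at 38 °C, 29.3, 21.3 and 26.1 CPM in bzip17 at 22 °C, and 23.1, 13.2 and 18.7 CPM in bzip17 at 38 °C. Heated WT lay above WT at 22 °C and above heated bzip17, and the mutant overlapped between temperatures. The log2 change with heat was 0.33 (SE 0.20) in WT and -0.48 (SE 0.20) in bzip17.

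**Figure D2:**
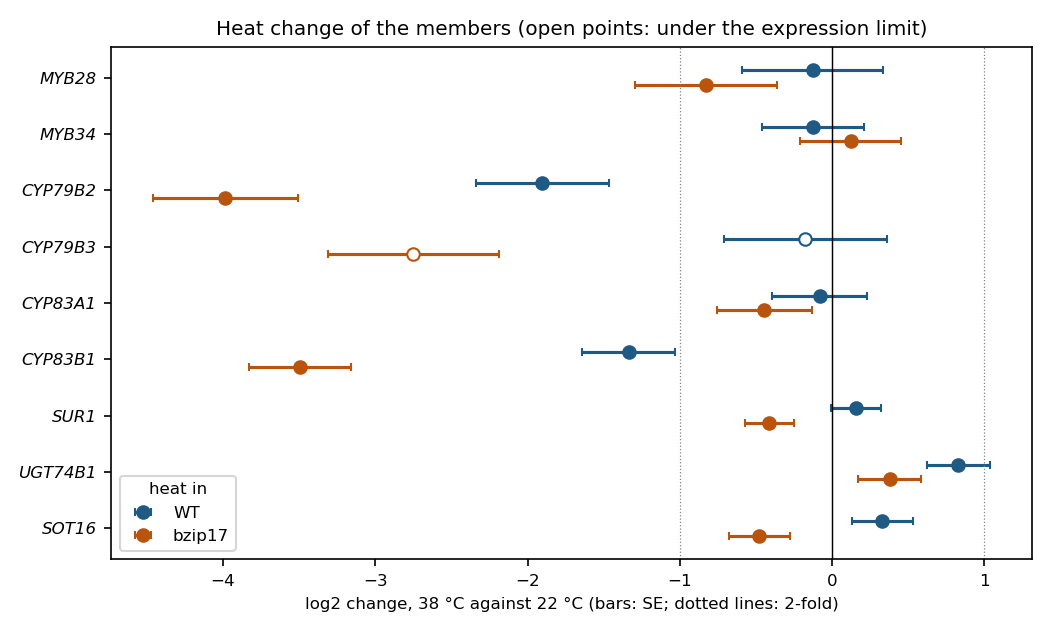
Log2 change from 22 °C to 38 °C (x axis) of 9 of the 10 genes in WT and in bzip17, with bars of 1 SE and dotted lines at 2-fold; CYP79F1, near the detection limit, is left out, and the open points of CYP79B3 come from the fit with no expression limit. CYP79B2 and CYP83B1 lie beyond the 2-fold line in both genotypes, at -1.90 and -1.34 in WT and -3.98 and -3.50 in bzip17.

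The expression limit, an FPKM of at least 1 in 3 or more libraries, left 20715 genes to be tested, among them 8 of the 10. Called here means a change of more than 2-fold with a Benjamini-Hochberg adjusted p under 0.05 in the quasi-likelihood test of edgeR. With heat in WT 2 of the 8 were called, both lower (CYP79B2 and CYP83B1), against 6.43% of all genes lower, and their median log2 change was -0.10 against 0.02 over all genes. With heat in bzip17 the same 2 were called, again lower, against 6.44% of all genes, and the median was -0.46 against -0.05. Without the 4 rRNA-rich libraries both kept their call in bzip17, at -3.88 (CYP79B2) and -3.39 (CYP83B1), and lost it in WT, at -2.16 and -0.97, where 1 library was left at 22 °C and 507 genes in place of 2658 were called. After scaling to library totals both also lost their call in WT, at -1.48 and -0.94, and kept it in bzip17, at -3.86 and -3.37. With any 1 library left out, replicate 2 of the heated groups included, both stayed called, at -2.30 to -1.61 (CYP79B2) and -1.47 to -1.12 (CYP83B1) in WT and -4.24 to -3.77 and -3.77 to -3.28 in bzip17. Since the genes were picked by name with such values known, nothing is read from these counts.

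Between genotypes at 22 °C, 0 of the 8 were called, against 0.00965% of all genes, 0 had an unadjusted p under 0.05, against 9.79% of all genes, and DESeq2 called 0. Their median log2 difference was 0.13 against 0.02 over all genes. The values ran from -0.61 (SE 0.33) for MYB34 to 0.54 (SE 0.42) for CYP79B2. At 38 °C 0 were called by edgeR, against 0.0145% of all genes, 4 were lower at an unadjusted p under 0.05, against 3.28% of all genes, and DESeq2 called 1, CYP83B1. All 8 were lower in heated bzip17 than in heated WT, with a median of -0.54 against -0.00. The log2 difference was -1.97 (SE 0.32) for CYP83B1, -1.54 (SE 0.44) for CYP79B2, -0.68 (SE 0.46) for MYB28, -0.65 (SE 0.20) for SOT16, -0.43 (SE 0.21) for UGT74B1, -0.39 (SE 0.16) for SUR1, -0.36 (SE 0.33) for MYB34 and -0.26 (SE 0.31) for CYP83A1. Of the 10 genes 6 did not overlap between the genotypes at 38 °C, all lower in bzip17 (MYB28, CYP79B2, CYP79B3, CYP83B1, SOT16 and, by a margin under the rounding, SUR1), against 6.99% of all tested genes. Nothing is read from these counts, for the same reason as with heat.

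The difference between the heat changes of the genotypes (the interaction) was called for 0 of the 8 genes, against 0.0% of all genes. At an unadjusted p under 0.05 it was lower in bzip17 for 4, against 2.25% of all genes, and DESeq2 called CYP83B1. As with the counts above, these genes were picked with such values known and nothing is read from the counts. The interaction was -2.16 (SE 0.43) for CYP83B1, -2.08 (SE 0.61) for CYP79B2, -0.81 (SE 0.29) for SOT16 and -0.57 (SE 0.23) for SUR1. The interaction uses the same libraries as the comparisons above and is not independent of them. The remaining values were -0.70 (SE 0.66) for MYB28, -0.45 (SE 0.29) for UGT74B1, -0.36 (SE 0.44) for CYP83A1 and 0.25 (SE 0.47) for MYB34.

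Ratios of 2 genes within a library do not depend on the scaling of libraries, including the unequal rRNA shares. The FPKM ratio of CYP83B1 to CYP83A1 averaged 1.51 (SD 0.365, range 1.09 to 1.75) in WT at 22 °C and 0.712 (SD 0.301, range 0.378 to 0.960) in WT at 38 °C. In bzip17 it averaged 1.52 (SD 0.390, range 1.101 to 1.87) at 22 °C and 0.186 (SD 0.0456, range 0.135 to 0.223) at 38 °C. At 22 °C the indole gene thus stood above the aliphatic gene in every library of both genotypes, and after heat below it in every library, with heated bzip17 below heated WT.

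The ratio of CYP83B1 to SUR1, a later enzyme, averaged 0.741 (SD 0.0872) at 22 °C and 0.266 (SD 0.0350) at 38 °C in WT. In bzip17 it averaged 0.743 (SD 0.238) and 0.0870 (SD 0.0174), in the same order. The ratio of CYP79B2 to SUR1 averaged 0.0873 (SD 0.0173) and 0.0203 (SD 0.00826) in WT and 0.110 (SD 0.0334) and 0.00900 (SD 0.00317) in bzip17. For CYP83B1 the ranges of the heated groups were 0.230 to 0.300 in WT and 0.0671 to 0.0995 in bzip17, without overlap, whereas for CYP79B2 they overlapped, from 0.0114 to 0.0278 and from 0.00668 to 0.0126. UGT74B1 went the other way against SUR1, from 0.825 (SD 0.136) to 1.298 (SD 0.127) in WT and from 0.719 (SD 0.0651) to 1.24 (SD 0.128) in bzip17. Its heated libraries lay above the unheated ones in both genotypes.

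**Figure D3:**
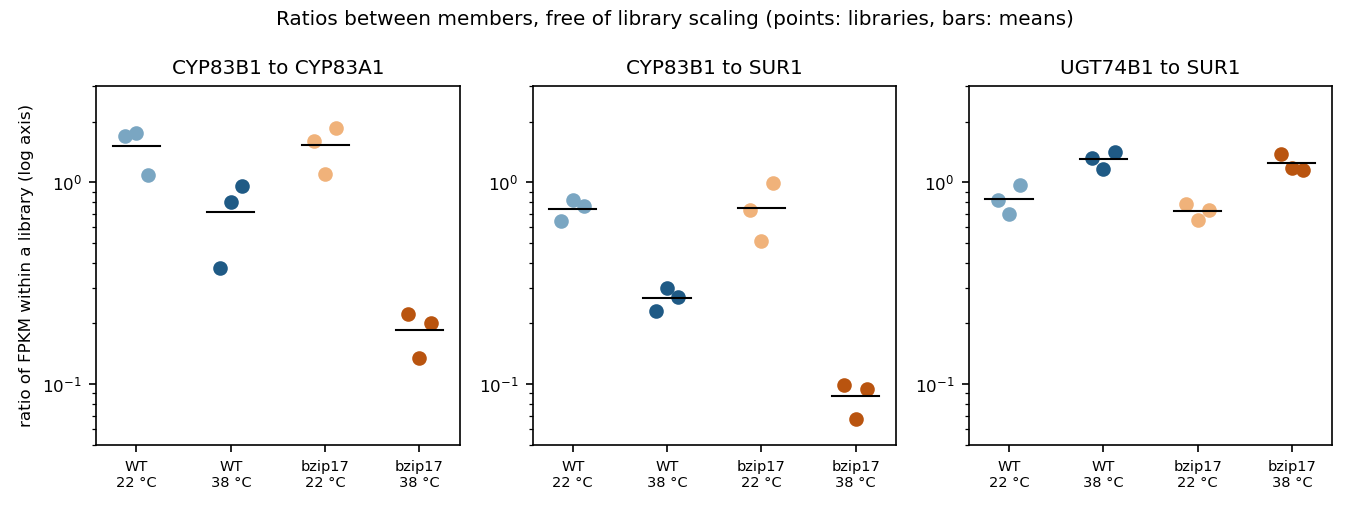
Ratios of FPKM within each library (y axis, log scale) of CYP83B1 to CYP83A1, CYP83B1 to SUR1 and UGT74B1 to SUR1 in the 4 groups; points are libraries and bars are means of 3. CYP83B1 to CYP83A1 lies above 1 in all 6 libraries at 22 °C and between 0.135 and 0.960 in the 6 heated ones.

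Across the 12 libraries several of the 10 genes were correlated in level. On log2(CPM + 1), CYP79B2 and CYP83B1 had a Pearson r of 0.92 (Spearman rho 0.95), CYP79B2 and CYP79B3 0.78 (rho 0.76), and CYP79B3 and CYP83B1 0.72 (rho 0.78). After the group means were taken out, r was 0.48, 0.44 and 0.52. CYP83B1 had an r of 0.59 with SOT16, 0.65 with SUR1 and -0.36 with UGT74B1, and with the group means taken out these were 0.80, 0.73 and 0.61, all above its values with CYP79B2 and CYP79B3. MYB28 and CYP83A1, regulator and enzyme of the aliphatic branch, had 0.68 (0.64 within groups), MYB34 and CYP83B1 0.14, and SUR1 and SOT16 0.80. These are descriptions over 12 libraries in 4 groups whose points share temperature, genotype and library.

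Outside the pathway lists, the 5 tested genes most like CYP83B1 over the 12 libraries by the same Pearson r were AT3G06890 (0.95), FLS2 (0.95), AT2G41090 (0.95), AT1G62790 (0.95) and AT1G30290 (0.94). FLS2, the receptor kinase for bacterial flagellin, had group means of 7.17 (SD 2.38), 3.76 (SD 1.74), 7.89 (SD 1.81) and 1.24 (SD 0.191) CPM in WT at 22 °C, WT at 38 °C, bzip17 at 22 °C and bzip17 at 38 °C. AT1G62790 had 30.2 (SD 4.93), 12.1 (SD 0.863), 28.0 (SD 6.06) and 9.14 (SD 1.36) CPM. Those most like CYP83A1 were AT4G19450 (0.90), AT1G06650 (0.87), RPA1A (0.84), a subunit of the single-strand DNA-binding protein, SP1L5 (0.82) and TPL (0.81), a transcriptional corepressor. TPL had group means of 151.9 (SD 68.5), 92.3 (SD 69.4), 163.8 (SD 39.9) and 48.6 (SD 10.4) CPM in the same order, with wide spread in WT.

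The rest of the pathway was read from a list of 72 genes, 50 of which passed the expression limit. These lists too were chosen with earlier results of these data known. Nothing is therefore read from their counts here or below, and the p-values of their genes carry the same limit. With heat in WT 2 rose and 10 fell, against 12.8% of all genes called in either direction and 6.43% called lower. The median log2 change of the 50 was -0.21, against 0.02 over all genes. With heat in bzip17 2 rose and 11 fell, against 12.5% of all genes in either direction and 6.44% lower. The median of the 50 was then -0.42, against -0.05 over all genes. Between genotypes 6 of the 50 had an unadjusted p under 0.05 at 22 °C, against 9.79% of all genes. At 38 °C there were 9, 7 of them lower in bzip17, against 3.28% of all genes lower. In the interaction there were 5, 3 of them lower in bzip17, against 2.25% of all genes lower. Called among all genes were 0.00965, 0.0145 and 0.0%. Of the 50, 0 were called at 22 °C, at 38 °C or in the interaction, and DESeq2 called 0, 0 and 0. The comparison of heat in WT with heat in bzip17 therefore rests on separate tests, and a gene called in 1 genotype alone is not shown to differ.

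The glutathione step, which follows CYP83 in the pathway, held the strongest changes of the core list, of whose 14 genes 11 were tested. In WT 1 rose and 3 fell, and in bzip17 0 rose and 5 fell, against 12.8 and 12.5% of all genes called in either direction. GSTF9, a glutathione S-transferase, stood at 353.3, 427.7 and 317.2 CPM in WT at 22 °C, 138.6, 99.1 and 108.1 CPM in WT at 38 °C, 502.9, 253.0 and 377.9 CPM in bzip17 at 22 °C, and 90.0, 69.4 and 75.0 CPM in bzip17 at 38 °C. All heated libraries lay below all unheated ones, and heated bzip17 below heated WT. That genotype difference, -0.56 log2 (SE 0.24), was not called. It fell by 1.67 log2 (SE 0.24, edgeR adjusted p = 7.0e-04) in WT and by 2.27 log2 (SE 0.25, adjusted p = 9.5e-05) in bzip17. GSTF10 fell by 1.19 (SE 0.19, adjusted p = 0.00138) and 1.34 log2 (SE 0.19, adjusted p = 5.4e-04), and GSTU13, which serves the indole branch, by 1.23 (SE 0.30, adjusted p = 0.0121) and 1.41 log2 (SE 0.30, adjusted p = 0.00562).

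The other 3 called genes of the core list are named after their values were seen. SOT18, the sulphotransferase of aliphatic substrates, rose by 1.02 log2 (SE 0.22, adjusted p = 0.00667) in WT by edgeR, and no longer passed the 2-fold limit without WT at 22 °C replicate 2 (0.93) or 3 (0.97) or WT at 38 °C replicate 1 (0.87). In bzip17 GSTU20 fell by 1.0003 log2 (SE 0.20, adjusted p = 0.00361) and APK2, which makes the sulphate donor, by 1.07 log2 (SE 0.34, adjusted p = 0.0364). The change of GSTU20 in WT was nearly the same, -0.93 log2 (SE 0.20, adjusted p = 0.00609), just under 2-fold. Its interaction was -0.07 (SE 0.28). In bzip17 GSTU20 lost its call without WT at 38 °C replicate 1 (-0.9972), bzip17 at 22 °C replicate 1 (-0.98) or 2 (-0.97) or bzip17 at 38 °C replicate 3 (-0.91). APK2 lost its call without bzip17 at 22 °C replicate 1 (-0.88) or 3 (-0.97) or bzip17 at 38 °C replicate 2 (-0.89) or 3 (-1.01).

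Of 15 transport and breakdown genes 12 were tested, and 1 rose and 3 fell in WT and 1 rose and 4 fell in bzip17, against 6.43 and 6.44% of all genes that fell. PEN3, a plasma membrane transporter that exports indole-derived defence compounds, stood at 48.8, 59.2 and 35.7 CPM in WT at 22 °C, 12.0, 17.8 and 16.3 CPM in WT at 38 °C, 50.7, 42.5 and 81.9 CPM in bzip17 at 22 °C, and 8.97, 5.85 and 7.06 CPM in bzip17 at 38 °C. As for CYP83B1, the genotypes overlapped at 22 °C and heated bzip17 lay below heated WT, as did 6.99% of all tested genes. The PEN3 difference at 38 °C was -1.07 log2 (SE 0.27, edgeR adjusted p = 0.665) and was not called. PEN3 fell by 1.64 log2 (SE 0.28, edgeR adjusted p = 0.00166) in WT and by 3.00 log2 (SE 0.29, adjusted p = 5.1e-05) in bzip17.

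PEN2, an atypical myrosinase that splits indole glucosinolates, stood at 15.6, 14.7 and 9.24 CPM in WT at 22 °C, 7.98, 4.03 and 6.70 CPM in WT at 38 °C, 14.7, 9.51 and 27.1 CPM in bzip17 at 22 °C, and 4.96, 3.03 and 5.52 CPM in bzip17 at 38 °C. The temperatures did not overlap in either genotype, and it was called in bzip17 alone, where it fell by 1.92 log2 (SE 0.40, edgeR adjusted p = 0.00486). The classical myrosinase genes TGG1 and TGG2 were not called in either genotype. TGG1 had log2 changes with heat of -0.67 (SE 0.29) in WT and -0.80 (SE 0.29) in bzip17, with overlapping temperatures. Its log2 difference of bzip17 from WT at 22 °C was -0.84 (SE 0.29), which was not called either. MBP1, a myrosinase-binding protein, fell by 1.11 log2 (SE 0.26, adjusted p = 0.01) in WT and by 1.24 log2 (SE 0.26, adjusted p = 0.00537) in bzip17. In WT it lost its call without WT at 22 °C replicate 2 (-0.94) or WT at 38 °C replicate 2 (-0.99).

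ESP, whose active protein diverts glucosinolate breakdown towards nitriles, rose by 2.30 log2 (SE 0.62, edgeR adjusted p = 0.0187) in WT and by 1.79 log2 (SE 0.61, adjusted p = 0.0464) in bzip17. These are RNA levels, and neither activity of the protein nor breakdown products were measured. ESP stood at 10.9, 7.91 and 4.55 CPM in WT at 22 °C, 41.8, 12.7 and 62.5 CPM in WT at 38 °C, 24.7, 5.26 and 24.4 CPM in bzip17 at 22 °C, and 83.6, 54.5 and 50.1 CPM in bzip17 at 38 °C. The temperatures did not overlap, but replicate 2 of heated WT and of unheated bzip17 lay far below the others of their groups. In WT the call was lost without WT at 22 °C replicate 2 (2.30) or 3 (2.04) or WT at 38 °C replicate 3 (1.78). In bzip17 it was lost without any 1 of 10 of the 12 libraries, with values of 1.35 to 2.08, and kept without WT at 38 °C replicate 2 or 3. The transporter GTR2, named after its values were seen, fell by 1.11 log2 in both genotypes (SE 0.31, adjusted p = 0.0200 in WT and 0.0189 in bzip17), and its coordinates overlap another gene. Its call was lost without WT at 22 °C replicate 2 (-0.97) or WT at 38 °C replicate 3 (-0.81) in WT, and without bzip17 at 22 °C replicate 2 (-0.86) or bzip17 at 38 °C replicate 1 (-1.06) or 3 (-1.04) in bzip17.

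Side-chain genes numbered 17, of which 10 were tested, and 0 rose and 2 fell in WT and 1 rose and 1 fell in bzip17, against 12.8 and 12.5% of all genes called in either direction. IGMT5, a methyltransferase that modifies the indole ring, stood at 29.7, 39.6 and 19.7 CPM in WT at 22 °C, 9.05, 8.79 and 13.6 CPM in WT at 38 °C, 35.9, 19.7 and 44.6 CPM in bzip17 at 22 °C, and 11.2, 7.18 and 9.03 CPM in bzip17 at 38 °C. It was lower in every heated library than in every unheated one. It fell by 1.505 log2 (SE 0.33, edgeR adjusted p = 0.00709) in WT and by 1.87 log2 (SE 0.34, adjusted p = 0.00199) in bzip17, with coordinates that overlap another gene, so its reads are uncertain. CYP81F4, the indole ring hydroxylase that acts with it, fell by 1.69 log2 (SE 0.55, adjusted p = 0.0418) in WT, also with an overlapping gene. That call was lost without WT at 22 °C replicate 3 (-1.07), WT at 38 °C replicate 2 (-1.47) or 3 (-1.52), or any of 3 bzip17 libraries (-1.69), namely replicate 1 at 22 °C and replicates 1 and 3 at 38 °C. In bzip17 CYP81F4 did not go the same way, with a log2 change of 0.04 (SE 0.53), and at 38 °C it was higher in bzip17 than in WT without overlap, by 1.76 (SE 0.55, adjusted p = 0.904). FMO_GS-OX2, which oxidises aliphatic side chains, rose by 1.07 log2 (SE 0.31, adjusted p = 0.0254) in bzip17, and lost its call without bzip17 at 22 °C replicate 1 (0.99) or 2 (0.97) or bzip17 at 38 °C replicate 1 (0.87).

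Of the 8 tested genes among 10 for methionine chain elongation, 0 were called in WT or bzip17 by edgeR, against 12.8 and 12.5% of all genes. An unadjusted p under 0.05 was seen for 4 and 2 of them, and DESeq2 called 2 and 1. Among other regulators, 8 of 12 were tested. With heat in bzip17 all 8 were lower and 0 were called, against 12.5% of all genes, and DESeq2 called 0. The 2 with an unadjusted p under 0.05, MYC3 (-0.87, SE 0.27, edgeR adjusted p = 0.0321) and SLIM1 (-0.57, SE 0.18, adjusted p = 0.0385), missed only the 2-fold limit. So did MYC3 (-0.94, SE 0.27, adjusted p = 0.0242) and SDI2 (-0.91, SE 0.22, adjusted p = 0.0102) with heat in WT. MYC3, SLIM1 and SDI2 are named after their values were seen. In WT 1 gene was called, against 12.8% of all genes. That gene was SDI1, a repressor of glucosinolate synthesis under sulphur shortage, which fell by 1.88 log2 (SE 0.64, edgeR adjusted p = 0.0490), and its call was lost without any 1 library other than WT at 38 °C replicate 3, with values of -2.11 to -1.38. Without that replicate the value was -3.21 and the call was kept.

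Tryptophan-derived aldoxime also feeds the phytoalexin camalexin, and 1 of the 4 genes listed for that branch was tested. GSTF6, a glutathione S-transferase of camalexin synthesis with near-copies in the genome, stood at 27.9, 45.9 and 24.3 CPM in WT at 22 °C, 0.234, 1.21 and 0.998 CPM in WT at 38 °C, 13.5, 20.8 and 13.8 CPM in bzip17 at 22 °C, and 0.311, 1.21 and 0.00 CPM in bzip17 at 38 °C. It was low in all 6 heated libraries. GSTF6 fell by 5.32 log2 (SE 0.91, edgeR adjusted p = 0.00180) in WT and by 4.96 log2 (SE 0.90, adjusted p = 0.00208) in bzip17. The 3 listed genes under the limit, CYP71A12, CYP71A13 and PAD3, stood at 0.92 CPM or less in every library.

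**Figure D4:**
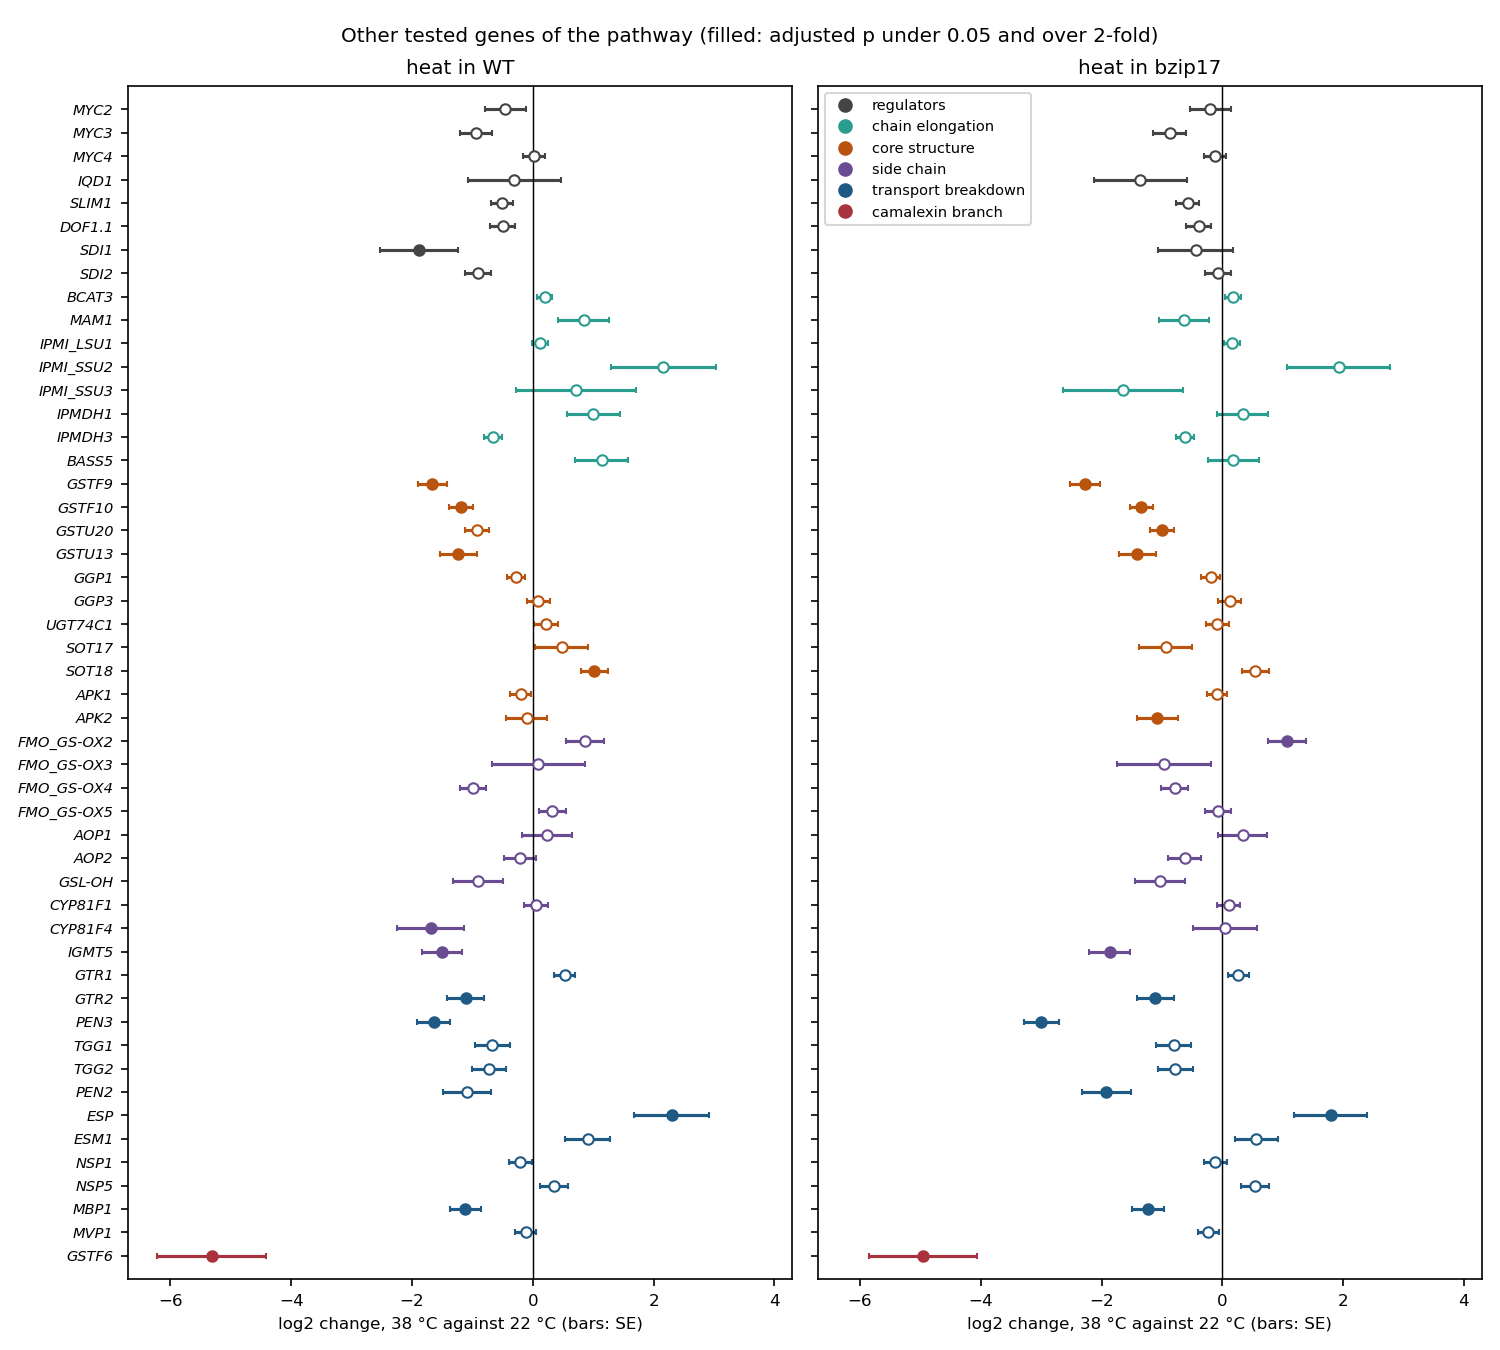
Log2 change from 22 °C to 38 °C (x axis) in WT (left) and bzip17 (right) of the 50 other tested genes of the pathway, coloured by list, with bars of 1 SE; filled points passed the test (adjusted p under 0.05 and more than 2-fold). The 3 filled glutathione S-transferases GSTF9, GSTF10 and GSTU13 lie left of 0 in both genotypes, and ESP lies right of 0 in both.

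Levels of tissue marker genes also differed between the groups, which does not show whether the makeup of the buds differed. The 3 pollen markers summed to 500 to 717 CPM in WT at 22 °C, 173 to 400 CPM in WT at 38 °C, 188 to 377 CPM in bzip17 at 22 °C and 147 to 438 CPM in bzip17 at 38 °C, so WT at 22 °C stood above the other 3 groups, none of the 3 markers being at 0. The 2 phloem markers summed to 60.2 to 93.4, 24.1 to 63.7, 32.5 to 57.5 and 31.0 to 37.7 CPM in the same order, and FAMA, a marker of guard cells and myrosin cells, to 13.6 to 15.5, 8.11 to 15.8, 5.63 to 10.4 and 4.23 to 9.02 CPM. The phloem markers differed from each other in bzip17. SUC2 was lower after heat, whereas APL was higher (13.8 to 16.8 against 8.92 to 11.2 CPM), both without overlap. The 3 green tissue markers summed to 6727 to 8036, 5186 to 6868, 9993 to 12942 and 5537 to 7732 CPM, highest in bzip17 at 22 °C. That sum is mostly RBCS1A and LHCB1.3. LHCB2.1 went another way, at 66.1 to 74.6, 103 to 134, 105 to 121 and 138 to 151 CPM in the same order, highest in heated bzip17. Replicate 2 of bzip17 at 22 °C had the lowest summed floral level of the 12 libraries (245 CPM). It also had the lowest level of its group for each of the 10 genes other than MYB28 and MYB34. The part of these differences in the results was not tested.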

How the data were processed

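The 10 genes and the pathway lists were chosen with earlier results of these data known. Total RNA of unopened buds was sequenced on an Illumina NovaSeq instrument. The authors removed adapters with cutadapt, used HISAT2 to map reads to TAIR10 and StringTie to assemble transcripts; tool versions are not given in the sources used here. Counts per gene and library were taken as deposited, as were the FPKM values computed by the authors, and 0 per-sample columns were left unused. A strand protocol is not stated, so overlapping genes have uncertain counts.

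The test covered 20715 genes, those reaching an FPKM of 1 in 3 or more libraries. TMM scaling kept the rRNA loci, 1 edgeR quasi-likelihood fit (4 group means) took all 12 libraries, and Benjamini-Hochberg adjustment ran over all genes tested. Calls needed more than 2-fold and an adjusted p under 0.05, the latter alone for the interaction. SE was taken as the size of the log2 change over the square root of F. P-values measure the spread between these pools. Named pathway genes are, per list and comparison, up to 3 called genes with the largest absolute log2 change. Those most like CYP83A1 and CYP83B1 are the 5 tested genes outside the lists with the highest r. RefSeq TAIR10.1 matched 28932 of 33610 IDs and gave the symbols of the genes most like CYP83A1 and CYP83B1. Listed genes carry the names used in the lists, some of which differ from their RefSeq symbols. Gene positions are those of TAIR10 in the file, and promoters are the 250 bases before the RefSeq start on TAIR10.1, whose starts mostly differ from those in the file.

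In the labels no batch goes with the replicate numbers. For heat in bzip17 the deviations of same-number libraries from their group means correlated at 0.223, 0.266 and 0.268, all over 0.1, and a block by replicate for those 6 libraries was added after these values were seen. In the other comparisons the correlations ran from -0.263 to 0.328. Alternatives were DESeq2, other scalings and filters, the groups compared alone, a replicate block, the thresholds in the methods of the study (more than 2-fold with an unadjusted p under 0.05), and leaving out libraries. Software was R 4.3.3, edgeR 4.0.16, DESeq2 1.42.0, limma 3.58.1, Python 3.11.15, pandas 2.3.3 and matplotlib 3.10.9.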

Additional observations from a re-analysis of the deposited data

How the results depend on the processing

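No direction of a called result reversed under the alternatives. With heat in WT, calls among the 10 genes went from 2 to 1 after scaling to library totals (UGT74B1, higher) and to 0 without the 4 rRNA-rich libraries, those among the 50 other pathway genes from 12 to 5 and 3, and those among all genes from 2658 to 507 without these libraries. With heat in bzip17, scaling to totals gave 6 pathway genes in place of 13 and 1300 of all genes in place of 2594, and the members' count was 2 in every alternative run other than the fit with no FPKM filter, where it was 3. Scaling to totals moved the median of all genes from 0.02 to 0.41 log2 with heat in WT and from 0.02 to 0.34 for the genotypes at 22 °C, and the share of higher among called genes from 49.8 to 82.9% with heat in WT and from 48.5 to 65.6% with heat in bzip17. The cause of these shifts was not tested.

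For the genotypes at 22 °C all genes called were 2, against 67 by DESeq2, 11 with totals, 4 in a fit of the groups compared alone, 1 without the rRNA-rich libraries and 758 at the thresholds of the study, where 1 pathway gene passed. At 38 °C they were 3, against 37 by DESeq2, 7 with totals, 6 with a replicate block, 0 without the rRNA-rich libraries and 239 at the thresholds of the study, and members called were 0, against 1 by DESeq2 and 2 at those thresholds, where 2 pathway genes passed. For the interaction they were 0, against 6 by DESeq2, 3 with totals, 1 without the rRNA-rich libraries and 394 at the thresholds of the study, with 1 member by DESeq2 and 2 members and 4 pathway genes at those thresholds.

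Leaving out 1 library at a time gave 2014 to 2803, 2068 to 2608, 2 to 25, 2 to 7 and 0 to 3 calls among all genes for heat in WT, heat in bzip17, the genotypes at 22 °C and at 38 °C and the interaction. Calls among the members were 2 in every such fit for heat in either genotype, 0 at 22 °C and in the interaction, and 0 to 1 at 38 °C, with 1 (CYP83B1) only without bzip17 at 22 °C replicate 2. Those among other pathway genes were 8 to 14 and 9 to 13 with heat. With a replicate block the pathway counts with heat were 12 in WT and 12 in bzip17, or 14 with the block among the 6 bzip17 libraries, and the members' counts did not move. With 3 pools per group and levels under 1 CPM in heated bzip17, depth and replicate number limit what can be said of CYP79B2, CYP79B3 and CYP79F1.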
